A study of Mus musculus with 13 samples.

Results

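Collagen chain genes encode the polypeptides of the collagens, the main structural proteins of the extracellular matrix. They were taken here as the genes whose symbol reads Col, a number, the letter a and a number. Of the 34013 genes in the count table, 44 met this rule, which reads only the symbol. The family itself was chosen with earlier results of these data known. Of these, 11 belong to the fibrillar class, 6 to the basement membrane class (the type IV chains) and 27 to other classes. A filter on low counts left 36 genes for testing, namely 9 fibrillar, 6 basement membrane and 21 other genes. The remaining 8 genes were Col2a1, Col9a1, Col9a2, Col10a1, Col19a1, Col24a1, Col25a1 and Col26a1.

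The study sequenced RNA of perivascular adipose tissue (PVAT), the fat around blood vessels, from mice given splenocytes (spleen cells) of a donor. In NTS-R (3 libraries) the donors were diabetic (T2DM, type 2 diabetes mellitus) and Nlrp3 KO, lacking the inflammasome sensor gene Nlrp3. In TS-R (4 libraries) the donors had T2DM, in NS-R (3 libraries) they were Nlrp3 KO without diabetes, and in WTS-R (3 libraries) they were wild type (WT). The strain background of each sample was C57BL/6, and the stated aim was to profile immune infiltration of PVAT and how diabetic immune cells affect it. The genotype label is Nlrp3 KO in NTS-R and NS-R and WT in TS-R and WTS-R, but it does not say whether donor or recipient is meant. The labels do not state the way diabetes was produced, the number of cells given, the time of collection, age or sex. Nor do they say whether each library is a separate animal, and the p-values below therefore reflect only how far these samples vary.

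Collagen molecules are helices of chains that may be identical or differ. Fibrillar collagens such as types I, III and V assemble into the banded fibrils that bear tension in connective tissue and the vessel wall. Type IV chains form the sheet-like network of basement membranes, which surround adipocytes and underlie endothelium. In adipose tissue, fibroblastic stromal cells are the main source of fibrillar collagen, while adipocytes and endothelial cells also make basement membrane chains and type VI collagen, a beaded filament found around cells.

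Upstream sequences are shown for Col1a2 and Col3a1, fibrillar chains that were among those with the lowest values in TS-R relative to WTS-R. They differ in base composition. Each is the 250 bases before the annotated start, on the plus strand of mouse build GRCm38.p6 as given by RefSeq. Col1a2 lies at chr6:4505368-4505617 and has 62% G and C. Col3a1 lies at chr1:45311288-45311537 and has 35.2% G and C. Capitals mark matches to the CCAAT box, to the TATA box (searched as TATAAA) and to the GC box (GGGCGG), on both strands; no matches overlap.
Col1a2: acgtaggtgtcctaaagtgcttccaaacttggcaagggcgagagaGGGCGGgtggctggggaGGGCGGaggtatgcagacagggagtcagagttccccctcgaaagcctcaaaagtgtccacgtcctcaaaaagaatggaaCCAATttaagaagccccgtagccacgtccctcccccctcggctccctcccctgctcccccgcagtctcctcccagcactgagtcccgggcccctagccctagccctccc
Col3a1: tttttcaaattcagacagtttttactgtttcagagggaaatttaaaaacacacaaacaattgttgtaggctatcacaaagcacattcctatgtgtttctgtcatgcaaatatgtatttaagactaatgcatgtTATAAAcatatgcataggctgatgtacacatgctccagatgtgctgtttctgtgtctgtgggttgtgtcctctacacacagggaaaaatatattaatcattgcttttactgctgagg
Col1a2 held CCAAT starting at position -109 relative to the start, and GGGCGG starting at -205 and -188. Col3a1 held TATAAA starting at -117. Among 32851 mouse promoter windows of the same length, 33.8% held CCAAT, 12.4% TATAAA and 32.7% GGGCGG. The table matched 35 collagen genes, with 38 windows. Of these windows 34.2% held CCAAT, 13.2% TATAAA and 57.9% GGGCGG. Such matches describe the letters of the window and are not evidence of binding.

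Libraries held 14216706 to 37011122 counts. With no read counted, up to 3 counts remain possible, or 0.0811 to 0.211 CPM (counts scaled to a common library size) depending on the library, for counting error only. Adipocyte markers were present in each group (8 of 8 markers), with summed levels of 14196 to 15698 CPM in NTS-R, 4892 to 17473 CPM in TS-R, 11331 to 17014 CPM in NS-R and 15901 to 18576 CPM in WTS-R. Libraries stood apart in other tissue content. TS-R replicate 3 was rich in lymphocyte markers (2699 CPM summed over 8) and high endothelial venule markers (1196 CPM over 4). Skeletal muscle markers (11718 CPM over 6) were high in TS-R replicate 1, and airway epithelium markers (6074 and 11679 CPM over 6) in NS-R replicates 1 and 2. TS-R replicate 3 and NS-R replicate 3 expressed Xist and lacked Ddx3y transcripts above the 3-count level, unlike the other 11 libraries. Nlrp3 itself was weak, at 0.352 to 1.22 CPM in NTS-R, 0.537 to 3.55 CPM in TS-R, 0.456 to 1.36 CPM in NS-R and 0.226 to 0.693 CPM in WTS-R. Its groups overlapped, and it gave no check of the donor genotype. In bulk tissue, fewer cells of a type and less RNA per cell cannot be told apart.

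Collagen transcripts together made up a small share of each library, and each TS-R library had a lower share than each WTS-R library. It was 0.338%, 0.177% and 0.218% in NTS-R replicates 1 to 3 and 0.264%, 0.174%, 0.113% and 0.199% in TS-R replicates 1 to 4. It was 0.441%, 0.392% and 0.204% in NS-R replicates 1 to 3 and 0.373%, 0.347% and 0.340% in WTS-R replicates 1 to 3. The TS-R and WTS-R values did not overlap, while NTS-R ran from the TS-R range to just below WTS-R and NS-R from the TS-R range to above WTS-R. The make-up of the collagen counts differed too. Fibrillar chains made up 51.0%, 39.0% and 38.6% of collagen counts in NTS-R, 39.0% to 42.4% in TS-R, 56.4%, 58.9% and 37.6% in NS-R, and 51.3%, 44.6% and 55.9% in WTS-R. The 4 TS-R libraries were close together and below the 3 WTS-R libraries. Basement membrane chains made up 29.2% to 39.8% in NTS-R, 27.8% to 36.8% in TS-R, 21.4% to 35.0% in NS-R and 24.0% to 36.4% in WTS-R, with overlapping groups. Other chains made up 24.2% to 32.8% in TS-R, against 19.0% to 20.1% in WTS-R, and these 2 groups did not overlap.

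**Figure D1:**
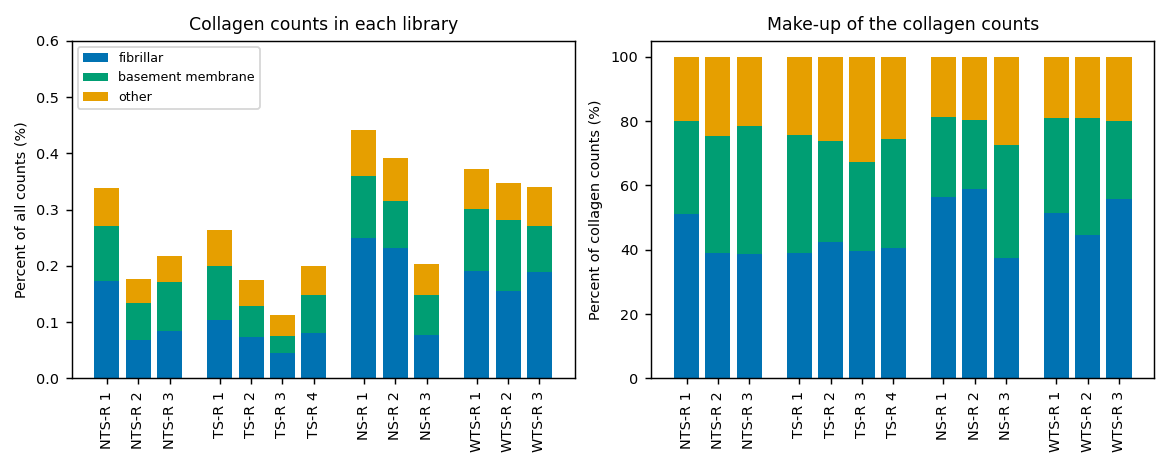
Collagen counts in each library by class, as a percent of all counts (left) and as a percent of collagen counts (right); each bar is 1 library. The 4 TS-R bars reach 0.113% to 0.264% of all counts and the 3 WTS-R bars 0.340% to 0.373%.

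Per kilobase of exon (from the GENCODE vM21 annotation), Col3a1 and Col4a1 had the highest levels of the 44 genes in WTS-R, at 85.9 ± 10.7 and 84.7 ± 16.5 CPM per kb (SD, n = 3), which do not differ beyond their spread. Col4a2 followed at 61.8 ± 15.4, then Col1a1 at 44.8 ± 8.53, Col6a1 at 41.1 ± 2.03 and Col1a2 at 28.4 ± 4.66 CPM per kb. The order differed in TS-R. There the type IV chains Col4a1 and Col4a2 led with 47.8 ± 19.9 and 39.4 ± 18.6 CPM per kb (SD, n = 4), ahead of Col3a1 with 27.8 ± 9.45 and Col6a1 with 24.9 ± 6.95 CPM per kb, although neighbours in that order were within their spread. Col1a1 stood at 15.5 ± 3.97 CPM per kb in TS-R. The lengths count the bases of all annotated exons of a gene, 9816 for Col3a1, 12426 for Col1a2, 7464 for Col4a1 and 4380 for Col6a1. They can exceed the transcripts in use, so the order between genes depends on them. In WTS-R Col1a2 averaged 353 CPM and Col6a1 180 CPM, the reverse of their order per kb.

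The type III and type I chains had the lowest log2 fold changes of TS-R over WTS-R among the 36 collagen genes tested. The weak chain Col8a2 was level with Col1a2, as given below with their errors. Col3a1 encodes the single chain of type III collagen, abundant in distensible tissues such as the vessel wall. Its level was 768, 270 and 382 CPM in NTS-R, 362, 261, 149 and 322 CPM in TS-R, 1177, 1155 and 267 CPM in NS-R, and 902, 722 and 906 CPM in WTS-R. All 4 TS-R libraries lay below all 3 WTS-R libraries. NS-R replicate 3, like NTS-R replicates 2 and 3, lay close to the TS-R range, and the other NS-R and NTS-R libraries lay above it. Col1a1 and Col1a2 encode the chains of type I collagen, the most common fibril protein. Col1a1 was at 320, 86.0 and 97.6 CPM in NTS-R, 134, 101, 70.3 and 103 CPM in TS-R, 416, 383 and 101 CPM in NS-R, and 340, 232 and 310 CPM in WTS-R. Col1a2 was at 388, 147 and 175 CPM in NTS-R, 211, 176, 114 and 175 CPM in TS-R, 522, 460 and 157 CPM in NS-R, and 389, 286 and 383 CPM in WTS-R. Both type I chains thus separated TS-R from WTS-R, and the libraries low in Col3a1 were low in them as well.

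Type V collagen is incorporated into type I fibrils and controls their assembly and diameter. Col5a2 was at 79.9, 39.7 and 50.8 CPM in NTS-R, 56.3, 43.8, 26.9 and 49.5 CPM in TS-R, 111, 91.9 and 43.0 CPM in NS-R, and 86.5, 68.1 and 80.7 CPM in WTS-R. Col5a1 was at 59.5, 29.1 and 35.6 CPM in NTS-R, 47.1, 32.8, 18.3 and 37.6 CPM in TS-R, 101, 73.5 and 40.2 CPM in NS-R, and 64.8, 57.1 and 64.0 CPM in WTS-R. TS-R and WTS-R did not overlap for either chain. Col5a3, another type V chain, was at 59.3, 34.8 and 37.2 CPM in NTS-R, 121, 60.7, 19.2 and 45.1 CPM in TS-R, 86.4, 87.9 and 61.1 CPM in NS-R, and 66.3, 85.0 and 81.2 CPM in WTS-R. TS-R replicate 1 was highest for Col5a3, so TS-R and WTS-R overlapped. The minor fibrillar chains Col27a1 (35.7 to 83.6 CPM over the 13 libraries) and Col11a2 (7.58 to 16.5 CPM) overlapped between all pairs of groups compared. Col11a1, known mainly from cartilage, was weak, with 2 to 5 counts in NTS-R, 6 to 19 in TS-R, 5 to 31 in NS-R and 1 to 5 in WTS-R. Col24a1 (1 to 29 counts) and the cartilage chain Col2a1 (0 to 60 counts) were not tested.

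**Figure D2:**
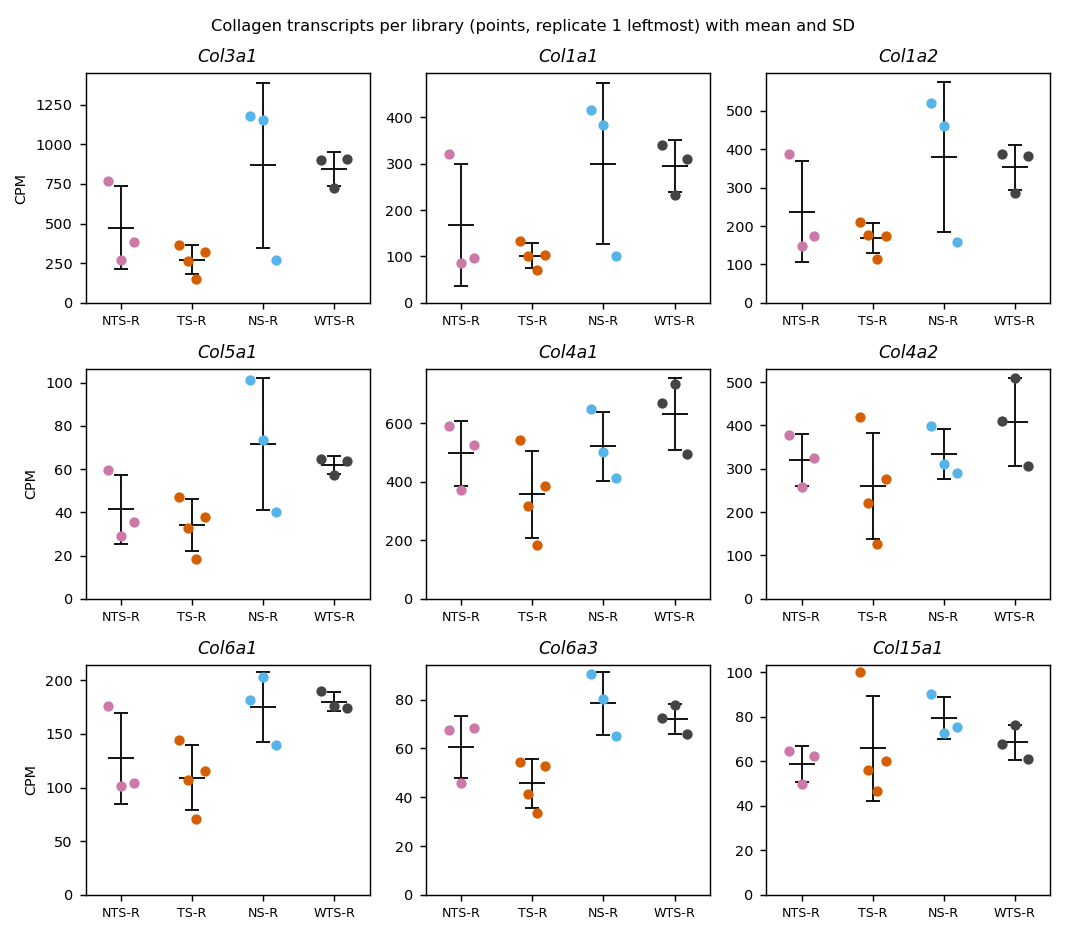
Levels of 9 abundant collagen genes in CPM; each point is 1 library, with the group mean and SD as a black bar. Col3a1, Col1a1 and Col1a2 in TS-R lie below each WTS-R library, while Col4a1, Col4a2 and Col15a1 overlap.

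The abundant basement membrane chains overlapped between TS-R and WTS-R. Col4a1 and Col4a2 encode the chains of the type IV network common to basement membranes. Col4a1 was at 589, 373 and 526 CPM in NTS-R, 540, 316, 183 and 386 CPM in TS-R, 648, 500 and 413 CPM in NS-R, and 667, 734 and 495 CPM in WTS-R. Col4a2 was at 378, 259 and 324 CPM in NTS-R, 420, 222, 126 and 276 CPM in TS-R, 400, 312 and 290 CPM in NS-R, and 411, 510 and 306 CPM in WTS-R. TS-R replicate 1 lay inside the WTS-R range for both chains, and the other TS-R libraries lay below it. The genes lie head to head and their 300-base promoter windows in RefSeq share 78 bases. The strand setting of the counting is not given in the sources used here, so reads where their exons overlap cannot be assigned to 1 gene with certainty. The restricted chains were weaker. Col4a5 ranged from 2.28 to 26.9 CPM, Col4a4 from 1.26 to 9.16 CPM, Col4a6 from 0.409 to 15.9 CPM and Col4a3 from 0.375 to 3.57 CPM over the 13 libraries, each with its highest value in NS-R replicate 1.

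Type VI collagen was lower in TS-R for its 3 abundant chains. Col6a1 was at 176, 101 and 104 CPM in NTS-R, 145, 107, 70.6 and 115 CPM in TS-R, 182, 203 and 140 CPM in NS-R, and 190, 176 and 174 CPM in WTS-R. Col6a2 was at 148, 88.0 and 92.4 CPM in NTS-R, 129, 89.5, 52.6 and 103 CPM in TS-R, 169, 187 and 126 CPM in NS-R, and 167, 154 and 174 CPM in WTS-R. Col6a3, whose C-terminal fragment is the adipokine endotrophin, was at 67.4, 46.0 and 68.4 CPM in NTS-R, 54.6, 41.4, 33.6 and 53.0 CPM in TS-R, 90.4, 80.2 and 65.0 CPM in NS-R, and 72.5, 78.0 and 65.9 CPM in WTS-R. No TS-R library reached the WTS-R range for any of the 3 chains. The chains Col6a4, Col6a5 and Col6a6, which can stand in for Col6a3, were weaker. Col6a6 was at 3.59 to 12.3 CPM over the 13 libraries, and the other two are described with the weak chains.

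Among the remaining classes, Col15a1, a proteoglycan-like chain at the outer face of basement membranes, was at 64.6, 49.8 and 62.2 CPM in NTS-R, 100, 55.9, 46.6 and 60.3 CPM in TS-R, 90.4, 72.8 and 75.5 CPM in NS-R, and 67.7, 76.5 and 61.1 CPM in WTS-R. TS-R and WTS-R overlapped. Col14a1, which binds the surface of fibrils, was at 85.3, 45.1 and 46.3 CPM in NTS-R, 59.6, 50.1, 36.6 and 56.8 CPM in TS-R, 104, 85.0 and 47.5 CPM in NS-R, and 84.9, 58.8 and 80.4 CPM in WTS-R. Its TS-R and WTS-R ranges met at TS-R replicate 1. Col8a1, a short-chain network collagen of the subendothelium, was at 11.1, 7.59 and 8.65 CPM in NTS-R, 9.43, 9.94, 4.40 and 8.74 CPM in TS-R, 13.8, 11.9 and 10.7 CPM in NS-R, and 14.7, 11.4 and 12.4 CPM in WTS-R, so TS-R and WTS-R did not overlap. Col18a1, the source of endostatin, ranged from 14.4 to 52.4 CPM over the 13 libraries, and Col12a1, another fibril-associated chain, from 9.83 to 26.4 CPM. Both overlapped between the groups.

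Setting TS-R against WTS-R asks what donor diabetes does with wild-type Nlrp3. Col3a1, Col1a1 and Col1a2 had the lowest log2 fold changes of the 36 collagen genes. The weak chain Col8a2 (-1.33 ± 0.58, SE) was level with Col1a2 (-1.33 ± 0.38), and the basement membrane chain Col4a5 followed at -1.21 ± 0.52. Near -1 stood the type V chains Col5a1 and Col5a2, Col4a1 and the type VI chains Col6a1, Col6a2 and Col6a3, while the type V chain Col5a3 was less far below 0. Among 9 fibrillar genes tested the median log2 fold change was -1.10, among 6 basement membrane genes -0.83 and among 21 other genes -0.36, beside 0.03 over all 17270 genes tested. Of the 36 collagen genes, 30 had a log2 fold change below 0 (47.6% of all genes did).
By edgeR's quasi-likelihood test at a Benjamini-Hochberg FDR of 0.05, 0 collagen genes were called, as were 0 of the 17270 genes (0%). At an unadjusted p under 0.05, 15 collagen genes were lower in TS-R (41.7% of 36, beside 7.07% of all genes) and 3 were higher (8.33%, beside 15.2% of all genes). DESeq2, at an adjusted p under 0.05, called 10 collagen genes lower (1.97% of all genes) and 2 higher (9.07% of all genes). Limma with voom called 15 lower (8.59% of all genes) and 2 higher (13.5% of all genes). In 9 collagen genes all TS-R libraries lay below all WTS-R libraries (2.39% of all genes), and in 3, namely Col6a4, Col22a1 and Col28a1, all lay above (19.2% of all genes).

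Col3a1 averaged 273 ± 92.7 CPM in TS-R (SD, n = 4) and 843 ± 105 CPM in WTS-R (SD, n = 3), a log2 fold change of -1.89 ± 0.46 (SE), with an edgeR FDR of 0.0624 and a DESeq2 adjusted p of 0.00128. Col1a1 had a log2 fold change of -1.80 ± 0.47 (edgeR FDR 0.0664, DESeq2 adjusted p 0.0035) and Col1a2 one of -1.33 ± 0.38 (edgeR FDR 0.0743, DESeq2 adjusted p 0.0108). Col5a1 and Col5a2 were also called lower by DESeq2, with log2 fold changes of -1.13 and -1.10. Thus 5 of the 9 fibrillar genes were called lower by DESeq2, while Col5a3 (-0.62), Col11a2 (-0.50) and Col27a1 (-0.39) were not. The weak chain Col11a1 went the other way, at 1.79 ± 0.79 (unadjusted edgeR p 0.0406), and was not called by DESeq2.
For the basement membrane class DESeq2 called 1 of 6 genes, Col4a1, at -1.11 ± 0.33 (edgeR FDR 0.0806, DESeq2 adjusted p 0.0158). Col4a2 had a log2 fold change of -0.93 ± 0.34 with a DESeq2 adjusted p of 0.0716, and Col4a5 one of -1.21 with an adjusted p of 0.13. Of the type VI chains, Col6a1 (-0.99), Col6a2 (-1.09) and Col6a3 (-0.93 ± 0.21) had an edgeR FDR of 0.0624 each and were called lower by DESeq2, as was Col8a1 (-0.93). Col15a1 (-0.34), Col18a1 (-0.47) and Col12a1 (-0.10) were not called by DESeq2 or edgeR. Limma with voom did call Col15a1 (FDR 0.0231) and Col18a1 (FDR 0.0268) lower, but not Col12a1. In the basement membrane class it called 2 of 6 genes lower, Col4a1 and Col4a2 (FDR 0.00324 and 0.00437). In the fibrillar class it called 5 of 9 lower and 1 higher, Col11a1 (FDR 0.0112).

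**Figure D3:**
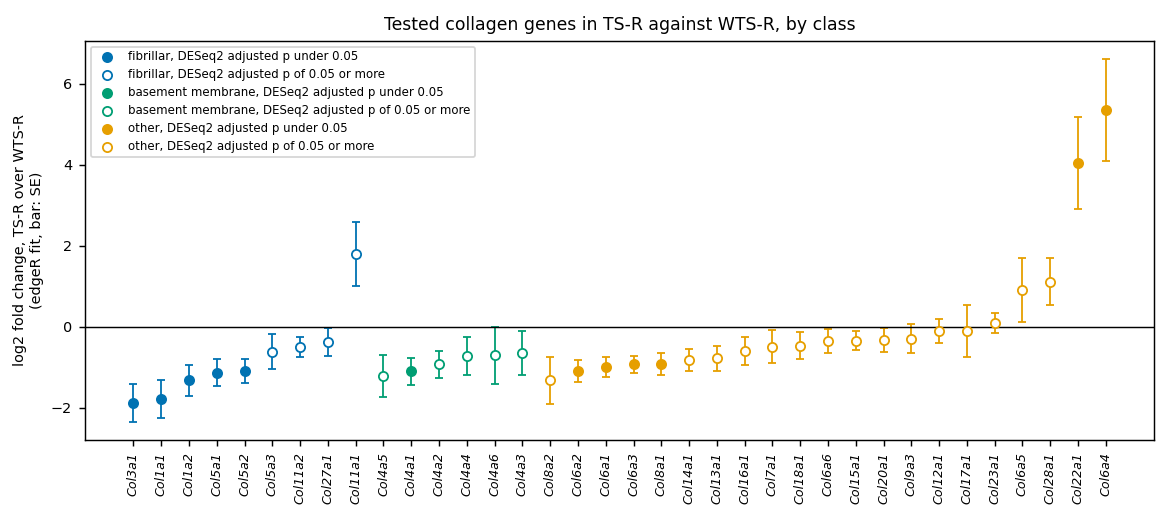
Log2 fold change of TS-R over WTS-R for the 36 tested collagen genes by class, from the edgeR fit; bars are the SE and filled points have a DESeq2 adjusted p under 0.05. Fibrillar genes reach down to -1.89 (Col3a1), and Col6a4 stands highest at 5.35.

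Scaling mattered for the size of these values. TMM factors were 1.05 to 1.21 in TS-R, against 0.899 to 0.981 in WTS-R. With library size alone, a setting chosen after the data were seen, the median of all genes moved from 0.03 to 0.31, and the genes at an unadjusted p under 0.05 numbered 288 lower and 4606 higher in place of 1221 lower and 2622 higher. With that scaling 10 collagen genes were lower (1.67% of all genes) and 4 higher (26.7% of all genes) at an unadjusted p under 0.05, Col3a1 had a log2 fold change of -1.63, and the class medians stayed negative at -0.83, -0.56 and -0.08.
Fibroblast markers (8 of 8 present in each group) summed to 208 to 709 CPM in TS-R, against 438 to 885 CPM in WTS-R. Mesothelium markers (5 of 5 present in each group) summed to 131, 96.2, 16.1 and 156 CPM in TS-R, against 270, 144 and 140 CPM in WTS-R. The part of either cell type in the collagen difference was not tested. With the fibroblast marker level as a covariate, also chosen after the data were seen, Col3a1 had a log2 fold change of -1.37, and 13 collagen genes were lower (5.26% of all genes) and 3 higher (10.1% of all genes) at an unadjusted p under 0.05. Without TS-R replicates 1 and 3, the libraries highest in skeletal muscle or lymphocyte markers, Col3a1 stood at -1.75. At the same threshold 17 collagen genes were then lower (8.74% of all genes) and 2 higher (10.7% of all genes). The TS-R replicates kept, 2 and 4, still held lymphocyte markers (617 and 220 CPM) and muscle markers (831 and 1429 CPM). In WTS-R these lists summed to 25.4 to 32.1 CPM and 12.99 to 1538 CPM. Leaving out TS-R replicate 1 alone gave 10 collagen genes past the edgeR FDR, 9 lower (2.13% of all genes) and 1 higher (9.05% of all genes), where 0 collagen genes and 0 of all genes passed with all libraries.

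The comparison of NTS-R with TS-R asks what loss of Nlrp3 in diabetic donors does. Most collagen chains had higher values in NTS-R, but the NTS-R libraries were split. NTS-R replicate 1 was near the WTS-R level for the type I and III chains, whereas replicates 2 and 3 were near TS-R. The median log2 fold change was 0.63 for fibrillar, 0.58 for basement membrane and 0.17 for other genes, beside -0.03 for all genes. With library size alone these medians were 0.36, 0.31 and -0.11 beside -0.33, so the direction of the other class turned.
EdgeR called 0 collagen genes and 0 of all genes (0%). At an unadjusted p under 0.05, 4 collagen genes were higher (5.59% of all genes) and 2 were lower (14.1% of all genes), where library size alone gave 0 higher (1.23% of all genes) and 2 lower (25.4% of all genes). The 4 were Col3a1 (1.05 ± 0.46), Col4a1 (0.76 ± 0.33), Col6a3 (0.70 ± 0.21) and Col11a2 (0.73 ± 0.25), log2 values with their SE. Limma with voom called 4 higher (2.2% of all genes) and 1 lower (7.28% of all genes). DESeq2 called Col6a3 higher (adjusted p 0.0434; 1.13% of all genes were called higher) and Col6a4 lower (adjusted p 0.00068; 7.14% of all genes). For Col3a1 the NTS-R mean was 473 ± 261 CPM (SD, n = 3) and the TS-R mean 273 ± 92.7 CPM (SD, n = 4). Without NTS-R replicate 1 the Col3a1 log2 fold change was 0.61 with an unadjusted edgeR p of 0.24. Fibroblast markers summed to 350 to 716 CPM in NTS-R, highest in replicate 1, and to 208 to 709 CPM in TS-R. Mesothelium markers summed to 156, 65.3 and 53.8 CPM in NTS-R, also highest in replicate 1, and to 16.1 to 156 CPM in TS-R. The part of either was not tested. TS-R enters both this comparison and the one with WTS-R, so the values of the 2 comparisons are not independent.

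The comparison of NS-R with WTS-R asks what loss of Nlrp3 does in donors without diabetes. The type I, III and V chains showed no difference beyond the spread. For these chains NS-R replicates 1 and 2 lay above each WTS-R library and replicate 3 lay below each. Fibroblast markers summed to 843, 791 and 378 CPM in NS-R, against 438 to 885 CPM in WTS-R, and mesothelium markers to 300.1, 401 and 43.0 CPM in NS-R, against 140 to 270 CPM in WTS-R. Both lists were lowest in NS-R replicate 3, and their part was not tested. NS-R replicate 3 was also the library of its group that expressed Xist, and replicates 1 and 2 were those with airway markers (6074 and 11679 CPM). Sex and airway content therefore cannot be told apart from this split. Col3a1 averaged 866 ± 519 CPM in NS-R and 843 ± 105 CPM in WTS-R (SD, n = 3 each), with a log2 fold change of -0.04 ± 0.49. The class medians were 0.00 for fibrillar, 0.36 for basement membrane and 0.17 for other genes, beside 0.01 for all genes. EdgeR called 0 collagen genes and 0 of all genes (0%). Without adjustment, 3 collagen genes were higher at a p under 0.05 (4.92% of all genes) and 0 were lower (0.388% of all genes). They were Col17a1, Col4a6 (1.74 ± 0.75) and Col11a1 (1.82 ± 0.82). DESeq2 called Col17a1 higher (adjusted p 0.0429; 1.1% of all genes were called higher), and limma with voom called none (0.0811% of all genes higher). Col17a1 and Col4a6 were high in NS-R replicates 1 and 2, as described with the weak chains, while Col11a1 had 31, 5 and 7 counts in NS-R and 1, 1 and 5 in WTS-R. Without NS-R replicates 1 and 2 the group is replicate 3 alone, assumed to vary like the other groups, and the class medians were -0.60, -0.42 and -0.16.

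The comparison of NTS-R with NS-R asks what donor diabetes does when the donors lack Nlrp3. The medians were -0.73 for fibrillar, -0.62 for basement membrane and -0.36 for other genes, beside -0.01 for all genes. EdgeR again called 0 collagen genes and 0 of all genes (0%). With no adjustment, 4 collagen genes were lower at a p under 0.05 (5.11% of all genes) and 0 higher (1.25% of all genes). The 4 were Col17a1 (-2.88 ± 0.68), Col4a6 (-1.88 ± 0.76), the type VI chain Col6a6 (-0.72 ± 0.32) and the transmembrane chain Col23a1 (-0.59 ± 0.26). DESeq2 called Col17a1 lower (adjusted p 0.0196; 1.18% of all genes were called lower), and limma with voom called none (0.0695% of all genes lower). The abundant fibrillar chains overlapped except Col5a3, with Col3a1 at -0.80 ± 0.50 and Col1a1 at -0.79 ± 0.50. Without NS-R replicates 1 and 2 the fibrillar and basement membrane medians were 0.09 and 0.14 and the other median -0.09. Among the male libraries only, which leave NS-R with those 2 replicates, 19 collagen genes were lower at an unadjusted p under 0.05 (9.91% of all genes).

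The interaction is the difference NTS-R minus NS-R less the difference TS-R minus WTS-R, so a positive value means that the diabetes difference was more positive with Nlrp3 KO donors. EdgeR called 0 collagen genes and 0 of all genes (0%), so a difference between the diabetes effects was not shown for any chain by that test. At an unadjusted p under 0.05, 4 genes were lower (13.6% of all genes) and 1, Col4a1 at 1.10 ± 0.48, was higher (4.7% of all genes). The 4 were Col17a1 (-2.78), Col6a4 (-5.33), Col11a1 (-2.73) and Col22a1 (-3.63), weak chains with at most 8 counts in any WTS-R library. Without NS-R replicates 1 and 2, which leaves NS-R replicate 3 with no Col6a4 count, the interaction was -0.46 for Col6a4 and -0.67 for Col17a1. DESeq2 called Col6a4 lower (adjusted p 0.0299; 5.74% of all genes were called lower), and limma with voom called 1 gene lower (7.24% of all genes) and 1 higher (3.6% of all genes). Col3a1 had an interaction of 1.09 ± 0.67 with an unadjusted edgeR p of 0.132. The class medians were 0.63, 0.31 and 0.06 beside -0.06 for all genes. With library size alone they were 0.28, -0.05 and -0.27 beside -0.41, so the signs of the basement membrane and other classes turned.

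Within a library, the ratio of 2 chains does not depend on scaling, and 10 pairs were read this way. The planned pairs were Col1a1 with Col1a2, Col4a1 with Col4a2, Col5a1 with Col5a2 and those among Col6a1, Col6a2 and Col6a3. The others were added to these. The log2 ratio of Col4a1 to Col4a2 counts lay between 0.36 and 0.70 over the 13 libraries and that of Col6a1 to Col6a2 between 0.00 and 0.42. Col6a3 to Col6a1 ran more widely, from -1.41 to -0.61. Col5a1 to Col5a2 was -0.56 to -0.26 in TS-R, against -0.42 to -0.25 in WTS-R, with overlap. Col1a1 to Col3a1 was -1.64 to -1.08 in TS-R, against -1.64 to -1.41 in WTS-R, also with overlap. The widest ranges were those of the weaker type IV chains, from -6.79 to -4.59 for Col4a5 to Col4a1 and from -2.73 to -0.76 for Col4a6 to Col4a5. For type I collagen, the log2 ratio of Col1a1 to Col1a2 was -0.28, -0.78 and -0.84 in NTS-R, -0.65, -0.80, -0.70 and -0.76 in TS-R, -0.33, -0.27 and -0.64 in NS-R, and -0.19, -0.30 and -0.31 in WTS-R. All 4 TS-R libraries lay below all 3 WTS-R libraries, and so did NTS-R replicates 2 and 3, as well as NS-R replicate 3. These are the libraries in which both type I chains were low, so Col1a1 was lower there than Col1a2 in proportion.
The ratio of Col3a1 to Col4a1, a fibrillar against a basement membrane chain, ran from -0.63 in NS-R replicate 3 to 1.21 in NS-R replicate 2. It was -0.58 to -0.27 in TS-R, against -0.02 to 0.87 in WTS-R, with no overlap. The log2 ratio of Col15a1 to Col4a1 was -2.43, -2.50, -1.98 and -2.68 in TS-R, against -3.30, -3.26 and -3.02 in WTS-R. Relative to Col4a1, then, Col15a1 was higher in each TS-R library than in each WTS-R library. Apart from these 2 pairs and Col1a1 to Col1a2, TS-R and WTS-R overlapped for each pair read. Col15a1 exons overlap an antisense gene, and reads of the pair cannot be told apart here. The same limit holds for Col4a3, Col5a1, Col6a4, Col6a6, Col9a3, Col10a1 and Col22a1, whose exons also overlap antisense genes. Counts are not per length, so these ratios are compared between libraries and not between genes.

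**Figure D4:**
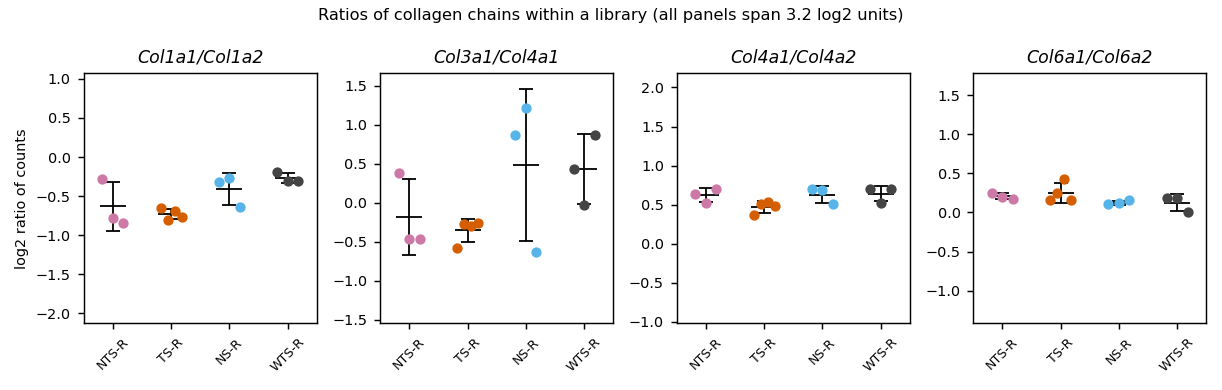
Log2 ratio of the counts of 2 collagen genes within each library; points are libraries and bars the mean and SD of a group. Col1a1 to Col1a2 is -0.80 to -0.65 in TS-R, against -0.31 to -0.19 in WTS-R, while Col4a1 to Col4a2 stays between 0.36 and 0.70.

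Several weak chains were high in 1 to 3 libraries, beside markers of other tissues. Col6a4, an alternative type VI chain, had 4, 3 and 1 counts in NTS-R, 8, 82, 508 and 36 in TS-R, 10, 4 and 0 in NS-R and 3, 1 and 2 in WTS-R. TS-R replicates 2, 3 and 4 stood above the other 10 libraries. Pooled over libraries its CPM was 59.3-fold higher in TS-R than in WTS-R (95% counting interval 27.1 to 162), and the fitted log2 fold change was 5.35 ± 1.26 with an edgeR FDR of 0.0624 and a DESeq2 adjusted p of 9.49e-05. In NTS-R against TS-R the fitted value was -4.84 ± 1.22. Lymphocyte markers (8 of 8 present in each group) summed to 20.5 to 70.5 CPM in NTS-R, 50.5, 617, 2699 and 220 CPM in TS-R, 31.9 to 45.2 CPM in NS-R and 25.4 to 32.1 CPM in WTS-R. High endothelial venule markers (4 of 4 present in each group) summed to 0.914 to 2.67 CPM in NTS-R, 1.81, 83.7, 1196 and 13.6 CPM in TS-R, 1.004 to 3.57 CPM in NS-R and 1.58 to 2.10 CPM in WTS-R. The same 3 TS-R replicates were highest in both lists, and the part of these tissues in the Col6a4 value was not tested.
Col6a5, another type VI chain, reached 29.3 CPM in TS-R replicate 3, with 0.945 to 9.46 CPM in the other 12 libraries and a TS-R against WTS-R log2 fold change of 0.90 ± 0.79.

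Col22a1, known from the junction of muscle and tendon, had 191 counts in TS-R replicate 1, 3, 31 and 11 in TS-R replicates 2 to 4, and 2, 3 and 0 in WTS-R. In NTS-R it had 3 to 5 counts and in NS-R 3 to 6. Its log2 fold change in TS-R against WTS-R was 4.03 ± 1.14, with an edgeR FDR of 0.0734 and a DESeq2 adjusted p of 0.00633. Limma with voom did not call it (FDR 0.213). Skeletal muscle markers (6 of 6 present in each group) summed to 244 to 1824 CPM in NTS-R, 11718, 831, 13.1 and 1429 CPM in TS-R, 38.3 to 878 CPM in NS-R, and 19.8, 12.99 and 1538 CPM in WTS-R. Both Col22a1 and these markers were highest in TS-R replicate 1, but WTS-R replicate 3 had muscle markers and no Col22a1 count. The part of muscle in this value was not tested.

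Col17a1, a transmembrane collagen of epithelial hemidesmosomes, had 3, 6 and 6 counts in NTS-R, 16, 4, 11 and 11 in TS-R, 179, 47 and 9 in NS-R and 5, 8 and 8 in WTS-R. The NS-R over WTS-R log2 fold change was 2.59 ± 0.66. Without NS-R replicates 1 and 2 it was 0.49. Col4a6, a chain of epithelial and smooth muscle basement membranes, was at 3.19, 0.897 and 1.90 CPM in NTS-R, 15.9, 5.87 and 1.65 CPM in NS-R and 3.004, 1.92 and 1.64 CPM in WTS-R. Without NS-R replicates 1 and 2 its log2 fold change in NS-R against WTS-R was -0.26. The 2 NS-R replicates high in Col17a1 and Col4a6 were those with airway markers, which summed to 6074, 11679 and 0.177 CPM in NS-R, 0 to 0.927 CPM in NTS-R and 0.226 to 0.378 CPM in WTS-R. Of the 6 airway markers, 3 were at 0 in NTS-R (Scgb3a2, Sftpc and Sec14l3) and 2 in WTS-R (Scgb3a2 and Sec14l3). Vascular smooth muscle markers were also highest in NS-R replicates 1 and 2, at 703 and 434 CPM, and the part of either tissue was not tested.
NS-R replicate 1, the deepest library, also held the most counts of several untested chains. Of the cartilage chains, Col10a1 had 70 counts there and 0 to 4 in the other libraries, and Col2a1 had 60 there and 0 to 6 in the others. Col9a2 (43 counts), Col25a1 (13 counts) and Col9a1 (12 counts) were also highest there. Cartilage markers summed to 12.3 CPM in NS-R replicate 1, where 7 of 8 had counts, and to 4.92 to 15.8 CPM over the 13 libraries. Only WTS-R replicate 3, at 15.8 CPM with 5 of 8, had a higher sum. Matn1 was at 0 in NS-R. The part of cartilage in these values was not tested.

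**Figure D5:**
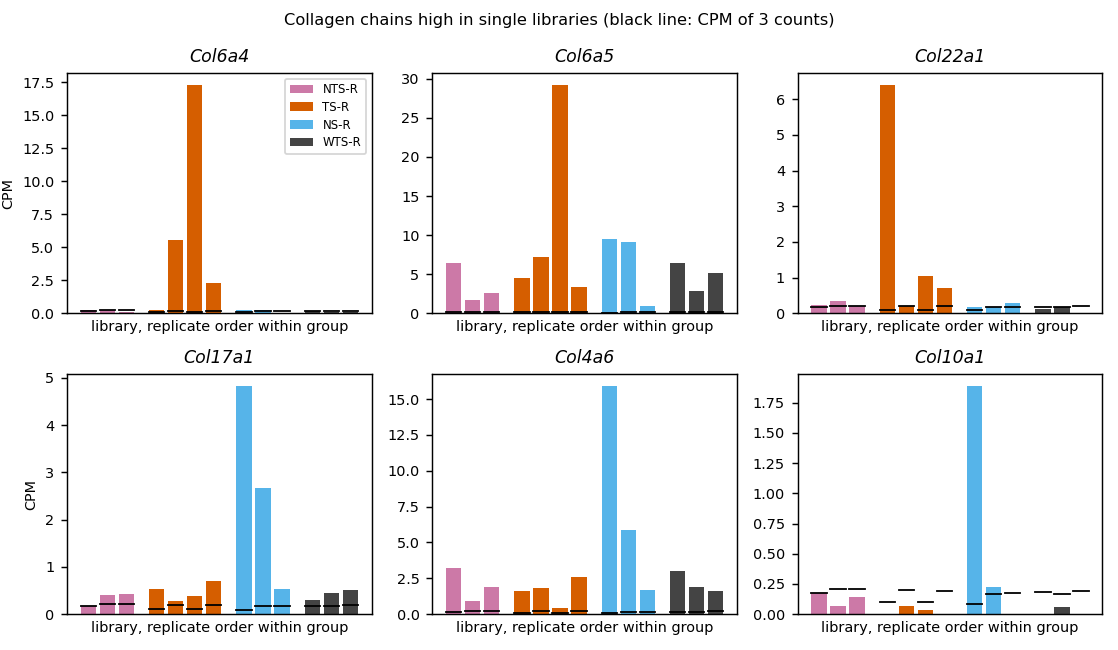
Levels in CPM of 6 weaker collagen genes in each of the 13 libraries, in replicate order within a group; the black line on each bar is the CPM of 3 counts. Col6a4 (17.3 CPM) and Col6a5 (29.3 CPM) peak in TS-R replicate 3, Col22a1 (6.41 CPM) in TS-R replicate 1, and Col17a1, Col4a6 and Col10a1 in NS-R replicate 1.

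The remaining tested chains were Col7a1, of the anchoring fibrils below epithelia, Col8a2, Col9a3, Col13a1, Col16a1, Col20a1, Col23a1 and Col28a1. In TS-R against WTS-R their log2 fold changes ran from -1.33 (Col8a2) to 1.11 (Col28a1). At an unadjusted p under 0.05 they included Col8a2 and the transmembrane chain Col13a1 (-0.79), and neither was called by DESeq2. The untested chains not described above, Col26a1 and Col19a1, had at most 13 and 4 counts in any library.

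Genes that act on collagens were read from 5 further lists. The shares of all genes to read them against are those given above (7.07% lower and 15.2% higher in TS-R against WTS-R, 14.1% lower and 5.59% higher in NTS-R against TS-R). DESeq2 called 1.97% of all genes lower and 9.07% higher in TS-R against WTS-R, and 7.14% lower and 1.13% higher in NTS-R against TS-R. It called 0.0232% higher in NTS-R against NS-R and 0.55% higher for the interaction. Of 26 genes of collagen biosynthesis and secretion, 24 were tested. In TS-R against WTS-R 9 were lower and 1 higher at an unadjusted p under 0.05, with a median log2 fold change of -0.48. Serpinh1, the collagen chaperone HSP47, had 331, 224, 161 and 265 CPM in TS-R, against 361, 392 and 421 CPM in WTS-R, a log2 fold change of -0.95 ± 0.24 (edgeR FDR 0.0632, DESeq2 adjusted p 0.00321). Its groups did not overlap. Plod3, a lysyl hydroxylase, and Pcolce, an enhancer of procollagen C-propeptide removal, had log2 fold changes of -0.63 and -0.92 and were called lower by DESeq2.
Of the 24, the unadjusted p was under 0.05 for 6 in NTS-R against TS-R, each with a higher value in NTS-R, and DESeq2 called 4 of them higher. P4ha1, a catalytic subunit of prolyl hydroxylase, had 77.2, 69.7 and 137 CPM in NTS-R, 37.8, 28.1, 37.0 and 72.1 CPM in TS-R, 31.9, 46.3 and 37.6 CPM in NS-R, and 49.0, 53.5 and 51.2 CPM in WTS-R. NTS-R was highest, overlapping with TS-R at TS-R replicate 4. Its log2 fold change was 1.41 ± 0.34 in NTS-R against TS-R (edgeR FDR 0.105, DESeq2 adjusted p 0.0047) and 1.36 ± 0.38 in NTS-R against NS-R (edgeR FDR 0.283, DESeq2 adjusted p 0.0444). The interaction was 1.85 ± 0.51 with a DESeq2 adjusted p of 0.0201. P4ha2 (1.19 ± 0.32) and the lysyl hydroxylase Plod2 (1.51 ± 0.42) were also called higher by DESeq2 in NTS-R against TS-R.

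Small leucine-rich proteoglycans bind fibrils and regulate their width. Of 9 tested, 3 were lower and 0 higher in TS-R against WTS-R at an unadjusted p under 0.05, and DESeq2 called 3 lower. They were Lum (lumican, -0.88 ± 0.19), Aspn (asporin, -1.03 ± 0.25) and Bgn (biglycan, -0.59 ± 0.19). In NTS-R against TS-R Aspn was at 0.96 ± 0.25 and was called higher by DESeq2 (adjusted p 0.014). Of 12 basement membrane partners, 3 were lower and 0 higher in TS-R against WTS-R, with Sparc, a matricellular protein that binds type IV collagen, at -1.12 ± 0.38 and the laminin chain Lamb1 at -0.85 ± 0.30. DESeq2 called Sparc of these. Lamb1 was at 1.02 ± 0.30 in NTS-R against TS-R (DESeq2 adjusted p 0.0272).
Of 9 tested collagen receptors, 2 were lower (the integrin chains Itga1 and Itga10) and 1 higher (Lair1, an inhibitory receptor of leukocytes, 1.76 ± 0.72) in TS-R against WTS-R at an unadjusted p under 0.05, and DESeq2 called 0. Lair1 was at 5.10, 8.39, 16.7 and 6.49 CPM in TS-R, against 1.86, 0.339 and 4.60 CPM in WTS-R, and was highest in TS-R replicate 3, the library richest in lymphocyte markers. Of 12 genes of the TGF-beta axis, which drives collagen transcription in fibroblasts, 2 were lower (Tgfb3 at -0.58 and Smad3 at -0.71) and 0 higher at an unadjusted p under 0.05, and DESeq2 called 0.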

How the data were processed

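Bulk RNA-seq of 13 PVAT libraries was deposited by the authors as whole-number counts per gene. HISAT2 and featureCounts were used per the submitters' processing notes, without versions. The labels' protocols name TRIzol extraction and paired-end mRNA libraries. Genome build, annotation release and strandedness: not given in the sources used here. Of 34013 gene identifiers, 33302 were matched to a symbol.

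Groups follow the sample titles. Levels are CPM by library size. Differences came from 1 edgeR 4.0.16 fit (R 4.3.3; TMM, filterByExpr, quasi-likelihood test) over all libraries and 17270 genes, with Benjamini-Hochberg adjustment over all genes tested. DESeq2 1.42.0, limma 3.58.1 (voomWithQualityWeights), other scalings, no filter on low counts, a replicate block, male libraries and left-out libraries were alternatives. The fit was tested on simulated data. The common biological coefficient of variation was 0.389. Replicate numbers were not treated as pairs in the main fit, and whether they pair the libraries is not known.

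The collagen genes, lists, markers and tests were chosen with earlier results of these data known. Values per library are given for the 12 members with the highest mean CPM and those called by edgeR or DESeq2, and the 2 tested members per class and comparison with the smallest p are named (3 per further list). Other members, and Col6a5, Col10a1, Col2a1 and Lair1 per library, were described after their values were seen. All pairs of libraries within a group differed beyond sampling noise (lowest chi-square per degree of freedom 36.3 over 15 pairs). Intervals and floors cover counting error only.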

Additional observations from a re-analysis of the deposited data

Results flagged for a closer look

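In a group of 4 libraries, the highest or lowest library was compared with the nearest of the others by Dixon's criterion (a gap above 0.829 of the group's range), for 44 collagen genes in TS-R. In normally distributed values, chance alone meets this criterion in about 1 in 20 groups. CPM values from few counts need not be so distributed, and the 44 genes share the same 4 libraries. That rate may therefore not hold here, and 3 genes met the criterion. Col6a5 was at 29.3 CPM in TS-R replicate 3, far above the other TS-R libraries (3.40 to 7.17 CPM). Col22a1 was at 6.41 CPM in TS-R replicate 1, far above the other TS-R libraries (0.203 to 1.06 CPM). Col2a1 was at 0.205 CPM (6 counts) in TS-R replicate 3, where the other TS-R libraries had 1 to 2 counts each, under the 3-count limit.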

How the results depend on the processing

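For the collagen genes past an FDR of 0.05, where edgeR gave 0 in each comparison, the other tools and filters gave more; the share of all genes past it is in brackets. In TS-R against WTS-R there were 7 without a filter on low counts (2.61%), 12 by DESeq2 (11%), 17 by limma with voom (22.1%), 4 without TS-R replicates 1 and 3 (3.94%), 2 with library size alone (6.68%), and 0 to 10 when 1 library was left out (10 without TS-R replicate 1, where 11.2% of all genes passed, and 4 without replicate 4, where 7.24% did). In NTS-R against TS-R there were 1 without a filter (1.19%), 2 by DESeq2 (8.27%), 5 by limma (9.48%), 1 without TS-R replicates 1 and 3 (1.95%), and 0 to 1 on leaving out 1 library (0% to 5.97%). In NS-R against WTS-R, DESeq2 gave 1 (1.1%), male libraries 2 (3.79%) and leaving out 1 library 0 to 1 (0% to 2.77%). In NTS-R against NS-R the counts were again 1 (1.2%), 2 (4.26%) and 0 to 1 (0% to 3.1%). For the interaction DESeq2 gave 1 (6.29%), limma 2 (10.8%), male libraries 1 (2.26%) and leaving out 1 library 0 to 1 (0% to 3.03%).

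At an unadjusted p under 0.05, leaving out 1 library gave 14 to 21 collagen genes in TS-R against WTS-R (16.1% to 30% of all genes; 18 collagen genes with all libraries), 3 to 11 in NTS-R against TS-R (12.7% to 24.9%; 6), 1 to 4 in NS-R against WTS-R (3.35% to 7.86%; 3), 1 to 12 in NTS-R against NS-R (3.67% to 9.63%; 4) and 2 to 6 for the interaction (13.1% to 22.6%; 5). Of the other settings, NTS-R against TS-R had 12 by limma (28.6%), 2 with library size alone (26.6%) and 15 with the fibroblast covariate (19.8%). NS-R against WTS-R had 6 without a filter (5.17%), 5 in male libraries (9.57%) and 1 without NS-R replicates 1 and 2 (2.7%). NTS-R against NS-R had 7 without a filter (5.42%), 14 by limma (13.3%), 19 in male libraries (13.4%), 0 without NS-R replicates 1 and 2 (1.67%), 9 without TS-R replicates 1 and 3 (13%) and 1 with the fibroblast covariate (6.6%). The interaction had 9 by limma (32.2%). The cause was not tested.

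Class medians kept within the spread between libraries in 326 of 345 recomputed values. In TS-R against WTS-R the fibrillar median was -0.61 without a filter and the other median -0.083 with library size alone and -0.68 to -0.30 on leaving out 1 library. In NTS-R against TS-R the other median was -0.11 with library size alone and 0.16 to 0.53 on leaving out 1 library. The fibrillar median ran from 0.29 to 0.80 and the basement membrane median from 0.33 to 0.91 on leaving out 1 library. Without NS-R replicates 1 and 2 the fibrillar, basement membrane and other medians were -0.60, -0.42 and -0.16 in NS-R against WTS-R, and they were 0.086, 0.14 and -0.090 in NTS-R against NS-R, and the fibrillar and other interaction medians were 1.18 and 0.61. For the interaction the fibrillar median was 0.19 in male libraries, and the other median -0.27 with library size alone and -0.017 to 0.55 on leaving out 1 library. Leaving out 1 library gave interaction medians of 0.26 to 0.73 for fibrillar and 0.05 to 0.71 for basement membrane genes. Without the 20 most abundant genes the mean collagen share was 0.362% in NTS-R, 0.240% in TS-R, 0.512% in NS-R and 0.501% in WTS-R. Signs reversed for Col4a6 (-0.26 for NS-R against WTS-R, 0.13 for NTS-R against NS-R), Col5a1 (-0.48 in NS-R against WTS-R) and Col4a4 (0.17 in NTS-R against NS-R) without NS-R replicates 1 and 2, and for Col5a1 (-0.11 in NS-R against WTS-R) without NS-R replicate 1 (its range on leaving out 1 library was -0.11 to 0.37).

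Libraries that share a replicate number had correlations of their deviations from -0.26 to 0.27, with 6 of 18 pairs above 0.1. Of 12 libraries, 5 correlated best with a library of their own number. These values did not show that the numbers pair the samples, and with so few libraries they cannot exclude it. With a replicate block 9 collagen genes passed the FDR in TS-R against WTS-R, all lower (0.955% of all genes passed as lower and 3.58% as higher), and 0 in the other comparisons. At an unadjusted p under 0.05 the block gave 15 in NTS-R against TS-R (22.9%).

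With 3 or 4 libraries a group and uneven tissue content, a gene that missed the threshold was not shown to be alike in the groups. Weak chains such as Col6a4, Col22a1, Col17a1 and Col11a1 rest on few counts in the groups where they were low, and their fitted fold changes depend on the prior count.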
